A study of Mus musculus with 12 samples.

Results

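The Kruppel-like factors (KLFs) described here are Klf2, Klf3, Klf4, Klf5, Klf6, Klf7, Klf9, Klf10, Klf13 and Klf15, 10 genes chosen by name and matched by Ensembl mouse gene ID among the 37583 gene IDs counted in every library. The libraries came from Ocy454 cells, an osteocyte line made from mouse long bone and carrying a temperature-sensitive SV40 T antigen, which per the study's methods was matured at 37 °C before use. RNA-seq compared control cells (original cells) with DKO cells (HDAC4 and HDAC5 deletion cells), each without flow (static) or after 3 h of fluid flow shear stress (FFSS) on a mixing platform, with 3 libraries in each of the 4 groups. Both deleted genes encode class IIa histone deacetylases, which bind MEF2 transcription factors and repress their targets. Each genotype was 1 cell line, so an effect of the deletions and a difference between lines cannot be told apart. The replicates are numbered 1 to 3, and nothing says that they came from separate cultures, so that the p-values measure the spread between these libraries, which may be technical.

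KLFs are transcription factors with zinc fingers at the carboxyl end that bind CACCC boxes and related GC-rich sites, and they differ in the cofactors that their other domains recruit. In endothelium, laminar shear raises Klf2 and Klf4 through the kinase ERK5 and through MEF2 factors bound to their promoters, and class IIa HDACs oppose this. In bone, KLF10 is known as a factor induced early by TGF-beta in osteoblasts, and KLF4 is known to act on osteoblast maturation.

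Promoter windows from 250 bases before to 50 bases after the transcription start were taken from a local set of RefSeq windows (mouse build GRCm38.p6). That set had windows for 8 of the 10 genes. Klf5 and Klf10 had no entry in it, which is a limit of the set and not of RefSeq. A match to the MEF2 consensus site, searched on both strands, was present in 1 of the 8 windows, that of Klf2, at 118 to 109 bases before the start, and in 3.19% of all 32851 windows of this length. The windows of Klf2 and Klf4 are shown, with the MEF2 match in capitals. These are the shear-responsive members in endothelium and the members with the lowest fitted changes after FFSS in control cells here. The first lies at chr8:72318812-72319111 on the plus strand and the second, with no such match, at chr4:55532426-55532725 on the minus strand.
Klf2: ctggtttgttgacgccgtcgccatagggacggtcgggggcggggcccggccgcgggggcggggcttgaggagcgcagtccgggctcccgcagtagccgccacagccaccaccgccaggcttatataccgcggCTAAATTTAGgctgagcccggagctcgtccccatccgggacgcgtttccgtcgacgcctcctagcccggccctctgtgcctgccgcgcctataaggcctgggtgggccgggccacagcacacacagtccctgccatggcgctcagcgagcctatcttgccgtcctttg
Klf4: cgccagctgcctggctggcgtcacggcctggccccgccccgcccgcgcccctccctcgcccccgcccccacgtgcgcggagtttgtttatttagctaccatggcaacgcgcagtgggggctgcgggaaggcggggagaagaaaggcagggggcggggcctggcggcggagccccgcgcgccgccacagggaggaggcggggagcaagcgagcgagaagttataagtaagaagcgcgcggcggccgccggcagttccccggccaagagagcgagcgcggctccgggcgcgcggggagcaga

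The CACCC box bound by KLFs themselves (CACCC, or GGGTG on the other strand) was present in 6 of the 8 windows and in 57.5% of all windows, and no CACCC match overlapped the MEF2 match. Klf3 had 5 matches and Klf7 had 3, Klf2, Klf9, Klf13 and Klf15 had 1 each, and Klf4 and Klf6 had 0. The window of Klf3 (chr5:64803271-64803570, plus strand) is shown because it held the most, with the CACCC and GGGTG matches in capitals, and that of Klf9 (chr19:23140976-23141275, plus strand) because Klf9 was the member higher in DKO cells by the lowest adjusted p. A match describes letters in these windows and not binding.
Klf3: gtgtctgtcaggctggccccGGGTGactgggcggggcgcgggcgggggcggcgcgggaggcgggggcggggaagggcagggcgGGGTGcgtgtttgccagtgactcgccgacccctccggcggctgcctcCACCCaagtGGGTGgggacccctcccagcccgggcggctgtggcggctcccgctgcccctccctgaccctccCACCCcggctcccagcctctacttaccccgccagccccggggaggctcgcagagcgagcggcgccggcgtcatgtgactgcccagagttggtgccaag
Klf9: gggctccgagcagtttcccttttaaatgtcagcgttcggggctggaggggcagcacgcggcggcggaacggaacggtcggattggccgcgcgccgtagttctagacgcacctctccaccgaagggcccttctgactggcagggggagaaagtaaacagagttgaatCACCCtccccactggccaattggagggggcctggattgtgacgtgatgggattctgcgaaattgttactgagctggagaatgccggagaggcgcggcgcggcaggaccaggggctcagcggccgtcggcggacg

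Reads assigned to genes numbered between 17.6 and 19.2 M per library, and 14904 genes, all 10 KLFs among them, passed the filter on low counts. Levels are given as counts per M gene reads (CPM) after TMM scaling, in the order of replicates 1, 2 and 3, and as mean ± SD (n = 3). Control FFSS replicate 1 stood apart from the other two control FFSS libraries, with a chi-square per degree of freedom of 63.8 and 58.0 over all genes against 6.45 between replicates 2 and 3 and 2.02 to 5.66 within the other groups. The share of reads falling outside annotated genes was 5.87%, 9.19% and 10.04% in the 3 control FFSS libraries, 5.10% to 5.21% in control static, 7.07% to 7.14% in DKO static and 7.93% to 8.55% in DKO FFSS libraries, so it moved with treatment and genotype. Counts that rest on control FFSS, and the values named from them that changed a call or moved by over 1.5 times, are therefore given with and without replicate 1, and the part of the share of reads outside genes was not tested except where a model holding it is named.

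Hdac4 was lower in DKO cells in both conditions and Hdac5 in static cells only. Hdac5 was measured at 131, 141 and 127 CPM in control static libraries and at 82.7, 80.2 and 90.8 CPM in DKO static libraries, a log2 difference of −0.65 (SE 0.08, edgeR quasi-likelihood test with Benjamini-Hochberg adjustment, adjusted p = 7.94e-06). Hdac4 was counted under 2 gene IDs, and ENSMUSG00000026313 was measured at 29.1, 23.9 and 25.5 CPM against 12.1, 17.0 and 14.4 CPM (log2 difference −0.85, SE 0.14, edgeR adjusted p = 0.000102). With FFSS the same ID was measured at 30.7, 37.8 and 42.6 CPM in control and at 13.2, 12.7 and 14.0 CPM in DKO libraries (log2 difference −1.48, SE 0.13, edgeR adjusted p = 5.65e-07). Hdac5 with FFSS was measured at 90.2, 71.1 and 82.4 CPM in control and at 93.3, 92.4 and 92.9 CPM in DKO libraries, so that it was not lower there (log2 difference 0.19, SE 0.08, edgeR adjusted p = 0.0512), and without control FFSS replicate 1 it passed as higher (0.27, edgeR adjusted p = 0.000487). The second Hdac4 ID, ENSMUSG00000073617, was lower in DKO cells by 0.39 on the log2 scale when static and by 0.50 with FFSS (edgeR adjusted p = 0.0281 and 0.00638), or by 0.28 with FFSS without control FFSS replicate 1 (edgeR adjusted p = 0.00652). A deletion made with a guide RNA need not remove the transcript, so these counts check the labels only in part. The summed level of 6 osteocyte markers ranged from 62.5 to 184 CPM in control libraries and from 3602 to 4025 CPM in DKO libraries, and the defining markers Mepe (up to 0.211 CPM) and Sost (0.0977 to 12.4 CPM) were low in control cells. In DKO static cells the sum lay mainly in Sost (2042 to 2097 CPM), Phex (901 to 1065 CPM) and Dmp1 (553 to 613 CPM). Pdpn, a marker of early osteocytes in the same list, went the other way, from a mean of 28.4 CPM in control static to 5.11 CPM in DKO static cells (log2 difference −2.47, SE 0.11, edgeR adjusted p = 8.57e-10) and by −2.61 with FFSS, and Fgf23 was at or near 0 in every group. The 5 endothelial markers summed to at most 0.537 CPM in any library, and the 4 adipocyte markers to at most 0.276 CPM with all 4 at or under 3 counts. The 5 osteoblast markers (under 6 gene IDs) summed to between 17155 and 20738 CPM in control static, 5998 and 16919 CPM in control FFSS, and 50184 and 57869 CPM over the DKO libraries. Most of each sum was Col1a1, at 14907 to 18274 CPM in control static and 47300 to 54760 CPM in DKO static libraries. In static DKO cells Bglap and Col1a1 passed as higher. Runx2, Sp7 and Alpl did not, with means of 197, 538 and 1633 CPM in control and 238, 787 and 1821 CPM in DKO libraries. With FFSS all 5 passed as higher, and 27.0% of all genes were higher in each condition. The chondrocyte markers summed to 50.1 to 102 CPM in control and 2002 to 2945 CPM in DKO libraries, where Col2a1 and Col10a1 made up most of it. Acan was not higher in static DKO cells, with means of 5.96 CPM in control and 4.97 CPM in DKO libraries. The haematopoietic markers summed to 18.0 to 32.2 CPM in control and 7.47 to 9.52 CPM in DKO libraries. Of the haematopoietic markers, Cd68 passed as lower in static DKO cells, with means of 25.5 CPM in control and 2.32 CPM in DKO libraries. Cd14 passed as higher there, with means of 3.73 and 5.83 CPM. The part of all these markers in the KLF differences between the lines was not tested.

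Per length of exon, Klf4 was the most abundant member in all 4 groups and Klf15 the least. In control static cells Klf4 was measured at 229 ± 16.2 reads per kilobase of exon and M reads (RPKM, n = 3). Klf3 (42.4 ± 1.06 RPKM), Klf2 (41.7 ± 1.85 RPKM) and Klf6 (40.9 ± 1.06 RPKM) followed with overlapping ranges. Below them Klf13 (18.0 RPKM), Klf10 (15.8 RPKM), Klf9 (10.1 RPKM), Klf5 (5.39 RPKM), Klf7 (2.84 RPKM) and Klf15 (1.73 RPKM) each had a range apart from its neighbours. Klf4 made up 56.1% of the summed RPKM of the 10 members in control static, 41.7% in control FFSS, 36.9% in static DKO and 31.4% in sheared DKO cells.

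After FFSS Klf2 stood at 19.5 ± 9.43 RPKM in control cells, where its range overlapped those of Klf3 (32.4 ± 2.16 RPKM) and Klf10 (16.6 ± 1.47 RPKM). Its place in the order rested on replicate 1 (30.4 RPKM), since replicates 2 and 3, at 13.8 and 14.3 RPKM, lay below all 3 libraries of Klf10 (15.3 to 18.2 RPKM). In DKO cells Klf2 held the second place in both conditions, at 47.7 ± 1.86 RPKM static and 52.5 ± 3.42 RPKM with FFSS, with no overlap with Klf6 below it (41.2 ± 1.37 and 41.7 ± 0.809 RPKM). The Klf7 level is uncertain, because 3196 of its exonic bases are shared with Gm17427 on the other strand. Reads there would be left unassigned if the counting was not stranded.

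**Figure D1:**
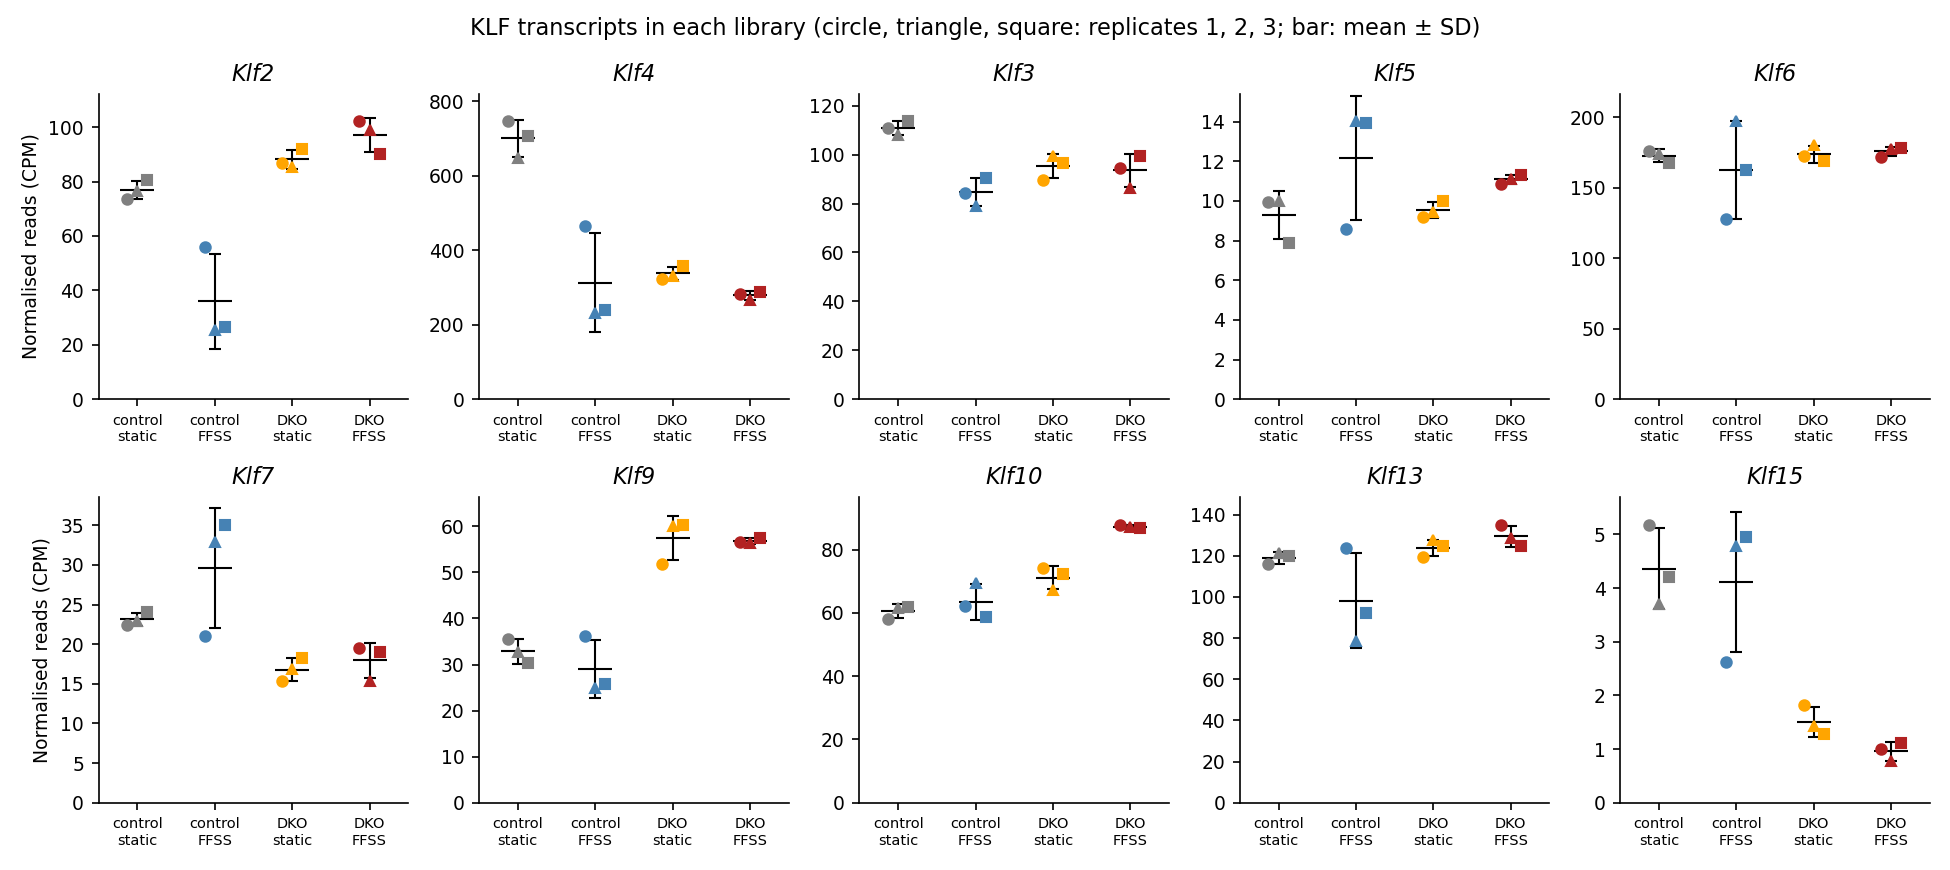
Normalised reads (CPM, y axis from 0) of each KLF in the 12 libraries, by group; points are libraries (circle, triangle and square for replicates 1, 2 and 3) and bars mean ± SD (n = 3). Klf2 and Klf4 sit lower in all 3 control FFSS libraries than in control static, with replicate 1 between the other 2 FFSS libraries and the static libraries. Every DKO library lies above every control library for Klf2 and Klf9, and below for Klf7 and Klf15.

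The first comparison asked what 3 h of FFSS did to the KLF transcripts of control cells. Klf2 and Klf4, the members raised by shear in endothelium, were both lower after FFSS, by 2.14-fold and 2.24-fold. Klf3, a repressor that works with the corepressor CtBP, fell by a smaller amount, and none of the 10 rose. Thus 3 members fell and 0 rose at an adjusted p under 0.05 in edgeR (2 rose at an unadjusted p under 0.05 and 0 in DESeq2), against 18.1% of all 14904 genes tested that fell and 17.7% that rose. Klf2 and Klf4 were also past the 2-fold limit that the study used, as were 1.97% of all genes in that direction. Osteoblast markers moved with these genes in control cells: of 5 tested, 3 fell after FFSS and 0 rose in edgeR (0 rose also at an unadjusted p under 0.05 and in DESeq2), namely Col1a1 (log2 change −1.002, edgeR adjusted p = 0.0496, and −1.67 without control FFSS replicate 1), Runx2 (−0.66, edgeR adjusted p = 0.00444) and Sp7 (−1.59, edgeR adjusted p = 0.0129), and without that library all 5 fell, where 28.3% of all genes fell and 26.7% rose. Of the other marker lists, Pdpn rose (0.63, edgeR adjusted p = 0.000390), and the chondrocyte marker Sox9 (−0.52, edgeR adjusted p = 0.00108) and the haematopoietic marker Cd68 (−0.50, edgeR adjusted p = 0.0139) fell. The osteocyte markers Phex (−2.93) and Dmp1 (−0.90) fell as well in the fit without control FFSS replicate 1. With that library in the fit neither passed, and the direction of Dmp1 rested on it. The mean of Dmp1 was 29.4 CPM in control static and 42.7 CPM in control FFSS libraries, with replicate 1 at 96.7 CPM. The part of these markers in the fall of Klf2 and Klf4 was not tested. These are RNA levels of whole cultures, in which fewer cells of a type and less RNA per cell cannot be told apart.

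Klf2 (ENSMUSG00000055148, mm9 chr8:74842932-74845555, plus strand) was measured at 73.7, 76.7 and 80.5 CPM in control static libraries and at 56.1, 25.4 and 26.5 CPM in control FFSS libraries. All 3 FFSS libraries lay below all static ones. The group means were 77.0 ± 3.41 and 36.0 ± 17.4 CPM (n = 3 each), and the log2 change was −1.10 (SE 0.25, edgeR adjusted p = 0.00893). Against the static mean, the log2 change was −0.45 in replicate 1 and −1.59 and −1.53 in replicates 2 and 3. Without control FFSS replicate 1 the log2 change was −1.57 (SE 0.07, edgeR adjusted p = 5.03e-17). With the share of reads outside genes in the model it was −0.27 (SE 0.10) and no longer passed (edgeR adjusted p = 0.0676). It also missed the threshold in the fit to the 6 control libraries alone, and the direction was kept in 20 of 20 alternatives.

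Klf4 (ENSMUSG00000003032, mm9 chr4:55540013-55545347, minus strand), known as one of the reprogramming factors, was measured at 746, 648 and 708 CPM in control static libraries and at 466, 232 and 241 CPM in control FFSS libraries. Again the groups did not overlap and replicate 1 was the highest of the FFSS libraries. The log2 change was −1.16 (SE 0.23, edgeR adjusted p = 0.00423) between means of 701 ± 49.5 and 313 ± 133 CPM (n = 3 each). It was −1.57 (SE 0.06, edgeR adjusted p = 1.10e-18) without control FFSS replicate 1 and −0.45 (SE 0.12, edgeR adjusted p = 0.0182) with the share of reads outside genes in the model. The fall of Klf4 passed in 20 of 20 alternatives, and 6.83% of all genes tested had a larger absolute change than Klf4 and 7.72% a larger one than Klf2.

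Klf3 (ENSMUSG00000029178, mm9 chr5:65194628-65221368, plus strand) was measured at 111, 108 and 114 CPM in control static libraries and at 84.4, 79.1 and 90.3 CPM in control FFSS libraries. The groups did not overlap, and here replicate 1 lay between the other two FFSS libraries. The log2 change was −0.39 (SE 0.07, edgeR adjusted p = 0.000915), −0.39 without control FFSS replicate 1 and −0.43 with the share of reads outside genes in the model, and it passed in 20 of 20 alternatives.

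The other 7 members did not pass, and their static and FFSS libraries overlapped. Klf5, an activator of epithelial and smooth muscle growth, was measured at 9.94, 10.001 and 7.90 CPM static and at 8.58, 14.0 and 13.9 CPM with FFSS (log2 change 0.39, SE 0.16, edgeR adjusted p = 0.0693). Klf7, known from neuronal development, was measured at 22.4, 22.9 and 24.1 CPM against 21.0, 32.9 and 35.1 CPM (log2 change 0.36, SE 0.16, edgeR adjusted p = 0.0909). In both genes replicates 2 and 3 lay above every static library and replicate 1 did not.

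Klf13, an activator of chemokine expression in T cells, was measured at 116, 121 and 120 CPM static and at 124, 78.7 and 92.2 CPM with FFSS (log2 change −0.28, SE 0.12, edgeR adjusted p = 0.0888). Klf9, induced by glucocorticoid and thyroid hormone, was measured at 35.5, 32.7 and 30.3 CPM against 36.2, 24.9 and 25.8 CPM (log2 change −0.18, edgeR adjusted p = 0.264). Both were below the static range in replicates 2 and 3 and above it in replicate 1. The fitted log2 change was −0.09 for Klf6, 0.07 for Klf10 and −0.08 for Klf15, each with an edgeR adjusted p between 0.469 and 0.809. Klf6, known as a factor induced on injury, ranged from 128 to 197 CPM over the control FFSS libraries against 168 to 176 CPM static.

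Without control FFSS replicate 1, 7 of the 10 passed in edgeR, 2 higher (Klf5 and Klf7) and 5 lower (Klf2, Klf3, Klf4, Klf9 and Klf13), where 26.7% of all genes tested were higher and 28.3% lower. Klf5 then rose by 0.59 and Klf7 by 0.55 on the log2 scale, and Klf13 fell by 0.48 and Klf9 by 0.37. With replicate 2 left out in its place, 4 members passed (Klf2, Klf3, Klf4 and Klf6, each lower), where 12.6% of all genes were higher and 13.1% lower. With replicate 3 left out 3 passed, each lower, where 12.3% were higher and 12.98% lower. With the share of reads outside genes in the model 4 members passed, each lower (Klf3, Klf4, Klf6 and Klf15), where 6.86% of all genes were higher and 8.51% lower.

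FFSS in DKO cells was compared with static DKO cells in the same fit. None of the 10 KLFs passed: 0 rose and 0 fell in edgeR's test, 1 of the 10 had an unadjusted p under 0.05, and DESeq2 called 1. Over all genes tested 0.376% rose and 0.497% fell. Klf10 was the member with the lowest adjusted p, and its 3 FFSS libraries lay above its 3 static libraries. This fit took its spread from all 12 libraries, control FFSS replicate 1 among them. In edgeR on the 6 DKO libraries alone, Klf10 passed as higher and Klf4 as lower. There 5.54% of all genes rose and 5.68% fell. The same calls were made without control FFSS replicate 1, where 4.83% of all genes rose and 5.66% fell.

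Klf10 (ENSMUSG00000037465, mm9 chr15:38221219-38230464, minus strand) was measured at 74.1, 67.1 and 72.2 CPM in DKO static libraries and at 87.8, 87.1 and 86.7 CPM in DKO FFSS libraries. The log2 change was 0.29 (SE 0.07, edgeR adjusted p = 0.0586). It passed in 7 of 20 alternatives, among them DESeq2, the fit without control FFSS replicate 1 (0.29, edgeR adjusted p = 0.00115) and the fit with the share of reads outside genes (0.29, edgeR adjusted p = 0.00554), and it lay between 0.25 and 0.33 over the 20.

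Klf2 was measured at 87.0, 85.4 and 92.0 CPM in DKO static libraries and at 102, 98.9 and 90.0 CPM in DKO FFSS libraries, which overlapped. Its log2 change was 0.14 (SE 0.24, edgeR adjusted p = 0.882). With the share of reads outside genes in the model the value was 0.44 (SE 0.06) and passed (edgeR adjusted p = 0.000155). Klf4 was measured at 323, 332 and 358 CPM static and at 283, 266 and 287 CPM with FFSS, and these libraries did not overlap. Its log2 change of −0.28 (SE 0.23) did not pass (edgeR adjusted p = 0.689). Without control FFSS replicate 1 the value was again −0.28, with an SE of 0.05 and an edgeR adjusted p of 0.000566. The fall of Klf4 in DKO cells passed in 2 of 20 alternatives, and its value over the 20 lay between −0.31 and −0.01.

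Klf5 (9.18, 9.44 and 9.999 CPM static, 10.8, 11.1 and 11.3 CPM with FFSS) and Klf15 (1.81, 1.43 and 1.28 CPM static, 0.995, 0.773 and 1.12 CPM with FFSS) were the other members whose DKO libraries did not overlap between treatments. Neither passed (log2 change 0.22 and −0.64, edgeR adjusted p = 0.643 and 0.419). In 1 of 20 alternatives Klf15 passed as lower, and its value over the 20 lay between −0.89 and −0.48. Klf15 rested on 13 to 33 reads per DKO library, and Klf5 on 167 to 202. The log2 changes of Klf3, Klf6, Klf7, Klf9 and Klf13 lay between −0.03 and 0.10.

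**Figure D2:**
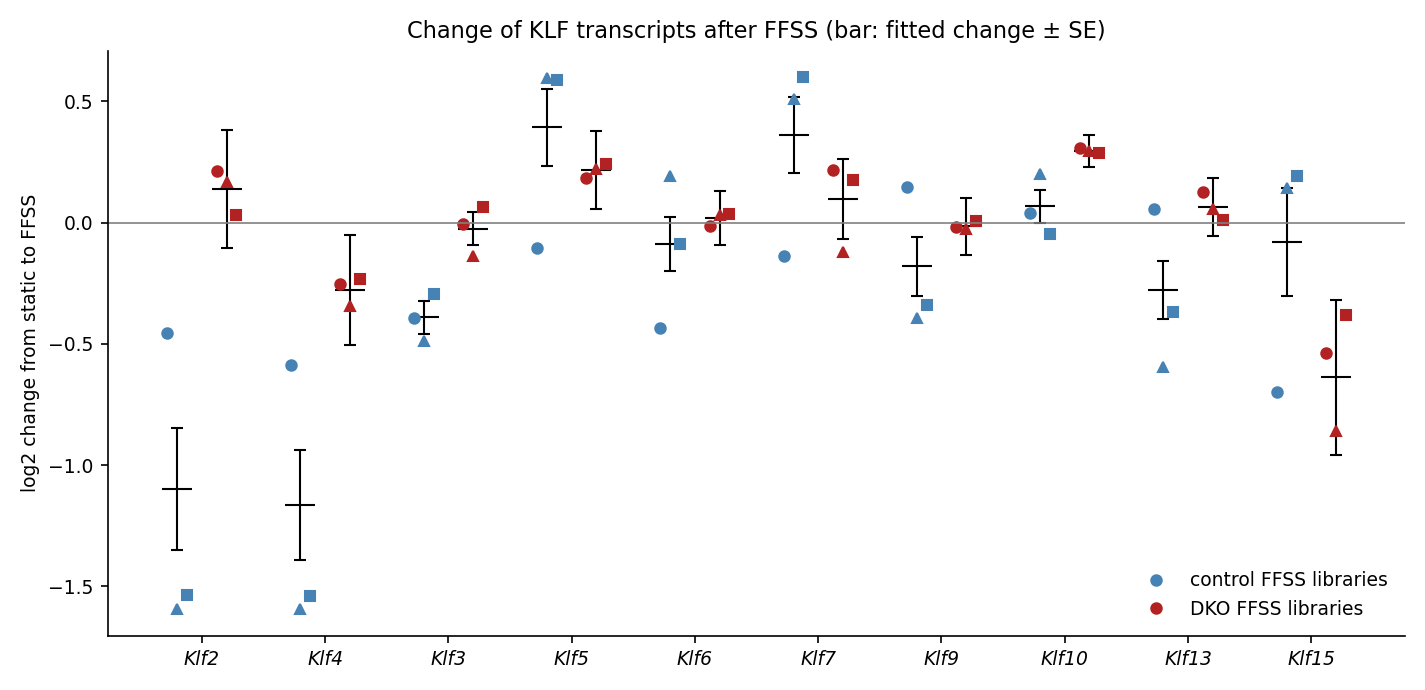
Log2 change of each KLF from static to FFSS (y axis) in control and DKO cells; points are single FFSS libraries against the mean of their static group (circle, triangle and square for replicates 1, 2 and 3), and black bars the fitted change ± SE. For Klf2 and Klf4, replicates 2 and 3 of control cells lie between −1.53 and −1.59 and replicate 1 at −0.45 and −0.59, while the DKO libraries lie between 0.03 and 0.21 for Klf2 and between −0.34 and −0.23 for Klf4.

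Whether the responses to FFSS differed between the genotypes was tested with the interaction term of the same fit, the DKO response minus the control response. It uses the same 12 libraries as the comparisons above, so its values are set beside them and add no separate libraries. Klf3 was the single member that passed, with a response 0.36 higher on the log2 scale in DKO cells (SE 0.10, edgeR adjusted p = 0.0491), and 0 members passed in the other direction (0 also at an unadjusted p under 0.05 and in DESeq2). Over all genes 2.28% passed with a higher and 1.68% with a lower response in DKO cells. Klf3 was measured at 89.7, 99.3 and 96.5 CPM in DKO static libraries and at 94.7, 86.4 and 99.4 CPM in DKO FFSS libraries, and its call was lost in 13 of 19 alternatives (edgeR and DESeq2 adjusted p between 0.00126 and 0.131).

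The differences in response of Klf2 and Klf4 were larger but did not pass in edgeR, while Klf2 passed in DESeq2 on the same libraries (1.25, SE 0.31, DESeq2 adjusted p = 0.00224). That of Klf2 was 1.24 (SE 0.35, edgeR adjusted p = 0.0825) and that of Klf4 was 0.89 (SE 0.32, edgeR adjusted p = 0.142). The calls changed with control FFSS replicate 1, whose own log2 responses of −0.45 and −0.59 lay nearer to the DKO libraries than those of replicates 2 and 3. Without it the difference was 1.71 for Klf2 (SE 0.09, edgeR adjusted p = 5.55e-15) and 1.29 for Klf4 (SE 0.08, edgeR adjusted p = 9.84e-14). Then 8 of the 10 members passed, 5 with a higher response in DKO cells (Klf2, Klf3, Klf4, Klf9 and Klf13) and 3 with a lower one (Klf5, Klf7 and Klf15), where 19.9% of all genes were higher and 17.7% lower. With the share of reads outside genes in the model, the difference was 0.72 for Klf2 (edgeR adjusted p = 9.04e-05), 0.44 for Klf4 (edgeR adjusted p = 0.0447) and 0.39 for Klf3 (edgeR adjusted p = 0.0162), and these 3 passed, where 3.76% of all genes were higher and 2.10% lower. Leaving out control FFSS replicate 2 in its place left 0 members past the threshold, where 1.66% of all genes were higher and 0.888% lower.

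DKO cells were then compared with control cells within each condition. In static cells 6 of the 10 KLFs passed, 2 higher in DKO cells (Klf9 and Klf10) and 4 lower (Klf3, Klf4, Klf7 and Klf15), against 27.0% of all genes higher and 27.2% lower. Klf4 and Klf15 were lower by over 2-fold, as were 7.3% of all genes. With FFSS 6 passed as well, 4 higher (Klf2, Klf9, Klf10 and Klf13) and 2 lower (Klf7 and Klf15), against 27.0% higher and 29.6% lower over all genes. Without control FFSS replicate 1, 8 passed, 5 higher with Klf4 added and 3 lower with Klf5 added, where 31.0% of all genes were higher and 34.0% lower. In the fit to all 12 libraries Klf2 was higher by over 2-fold with FFSS, as were 8.25% of all genes, and Klf15 lower by over 2-fold, as were 8.96%. The FFSS and the static genotype differences were taken from separate libraries, but each shares its libraries with the FFSS comparisons above. Their p-values are not independent, because the spread was estimated from all 12 libraries together. A library outside a comparison, such as control FFSS replicate 1 for static cells, can therefore change its SE and its calls.

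Among the hormone-induced members, Klf9 (ENSMUSG00000033863, mm9 chr19:23215716-23241401, plus strand) was measured at 51.9, 60.0 and 60.3 CPM in DKO static and at 56.6, 56.3 and 57.5 CPM in DKO FFSS libraries. Every DKO library lay above every control library, whose range over both conditions was 24.9 to 36.2 CPM. Klf9 was 1.75-fold higher in static DKO cells (log2 change 0.81, SE 0.12, edgeR adjusted p = 6.24e-05) and 1.96-fold higher with FFSS (0.97, SE 0.12, edgeR adjusted p = 1.20e-05). Both calls held in 20 of 20 alternatives.

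Klf15 (ENSMUSG00000030087, mm9 chr6:90412570-90425232, plus strand), also induced by glucocorticoid and known for its control of gluconeogenesis, went the other way. It was measured at 5.18, 3.70 and 4.21 CPM in control static and at 2.62, 4.79 and 4.95 CPM in control FFSS libraries, from 51 to 100 reads each, so every control library lay above every DKO library. It was 2.89-fold lower in static DKO cells (log2 change −1.53, SE 0.26, edgeR adjusted p = 0.000166) and 4.25-fold lower with FFSS (−2.09, SE 0.28, edgeR adjusted p = 2.01e-05), and both calls held in 20 of 20 alternatives.

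Klf4 was 2.07-fold lower in DKO than in control cells when static (log2 change −1.05, SE 0.23, edgeR adjusted p = 0.00288), and the call held in 20 of 20 alternatives, with values between −1.13 and −0.57. With FFSS the fitted difference was −0.17 (SE 0.23, edgeR adjusted p = 0.563), and the DKO libraries (266 to 287 CPM) lay between control replicate 1 (466 CPM) and replicates 2 and 3 (232 and 241 CPM). Without control FFSS replicate 1 the direction turned, with Klf4 higher in DKO cells by 0.24 on the log2 scale (SE 0.06, edgeR adjusted p = 0.000583).

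Klf2 showed the opposite order of comparisons. Its static libraries gave a log2 change of 0.20 (SE 0.24, edgeR adjusted p = 0.537), although all 3 DKO libraries (85.4 to 92.0 CPM) lay above the 3 control ones (73.7 to 80.5 CPM). It passed without control FFSS replicate 1 (0.19, SE 0.05, edgeR adjusted p = 0.00261), and with the share of reads outside genes in the model the value was 0.76 (edgeR adjusted p = 1.16e-08). With FFSS Klf2 was 2.70-fold higher in DKO cells (log2 change 1.43, SE 0.25, edgeR adjusted p = 0.000798), and without control FFSS replicate 1 the value was 1.90 (SE 0.07, edgeR adjusted p = 1.09e-19). The call with FFSS held in 20 of 20 alternatives.

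Klf10 was higher in DKO cells in both conditions, by 0.23 on the log2 scale when static (SE 0.07, edgeR adjusted p = 0.00983, lost in 1 of 20 alternatives, scaling by library totals alone, at 0.15 and an edgeR adjusted p of 0.112) and by 0.46 with FFSS (SE 0.07, edgeR adjusted p = 4.81e-05). Its control libraries were measured at 58.1, 61.6 and 61.9 CPM static and at 62.1, 69.6 and 58.6 CPM with FFSS, all below the DKO FFSS libraries. Klf13 (ENSMUSG00000052040, mm9 chr7:71031237-71083801, minus strand) was measured at 120, 127 and 125 CPM in DKO static and at 135, 129 and 125 CPM in DKO FFSS libraries. It was higher in DKO cells with FFSS by 0.40 (SE 0.12, edgeR adjusted p = 0.0126), a call lost in 3 of 20 alternatives, and by 0.60 without control FFSS replicate 1 (SE 0.06, edgeR adjusted p = 7.65e-10). The difference was 0.06 when static (edgeR adjusted p = 0.713).

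Klf7 (ENSMUSG00000025959, mm9 chr1:64076021-64168856, minus strand) was measured at 15.3, 16.8 and 18.2 CPM in DKO static and at 19.5, 15.4 and 19.0 CPM in DKO FFSS libraries, all below every control library. It was lower in DKO cells when static (log2 change −0.46, SE 0.16, edgeR adjusted p = 0.0285, lost in 5 of 20 alternatives) and with FFSS (−0.72, SE 0.16, edgeR adjusted p = 0.00177). Klf3 was lower in static DKO cells by 1.16-fold (log2 change −0.22, SE 0.07, edgeR adjusted p = 0.0127), a call lost without DKO static replicate 1 (−0.18, edgeR adjusted p = 0.0667), and its difference with FFSS was 0.14 (edgeR adjusted p = 0.0837). Klf5 (ENSMUSG00000005148, mm9 chr14:99697910-99712624, plus strand) and Klf6 (ENSMUSG00000000078, mm9 chr13:5860735-5869639, plus strand) did not pass in either condition, with log2 changes between −0.14 and 0.11. With FFSS, Klf5 passed as lower in DKO cells without control FFSS replicate 1 (−0.33, SE 0.10, edgeR adjusted p = 0.00631), and Klf6 as higher without control FFSS replicate 2 (0.28, SE 0.08, edgeR adjusted p = 0.0118). Klf6 was measured at 169 to 180 CPM in DKO static and at 172 to 178 CPM in DKO FFSS libraries.

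**Figure D3:**
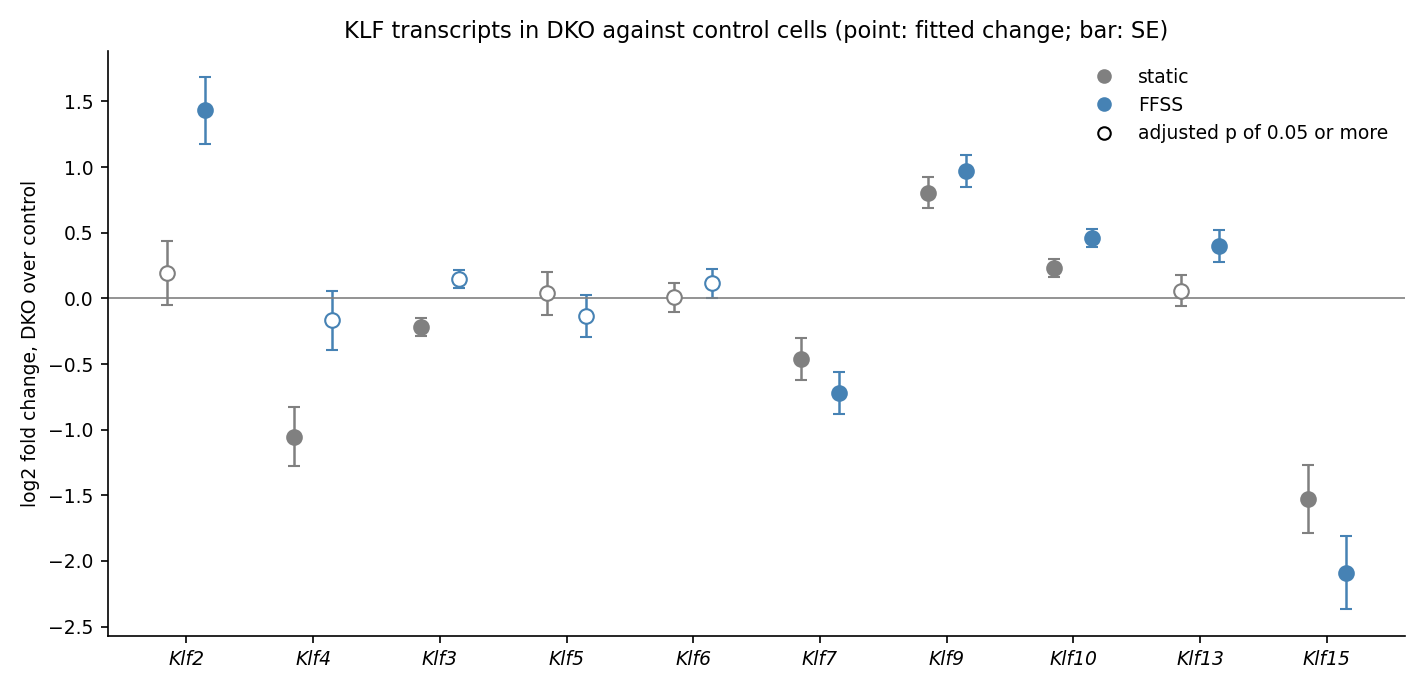
Log2 change of each KLF in DKO over control cells (y axis), static and with FFSS; points are fitted changes, bars their SE, and open points did not pass an adjusted p of 0.05. Klf9 and Klf10 lie above and Klf7 and Klf15 below 0 in both conditions, Klf4 is low when static only, and Klf2 is high with FFSS at 1.43.

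The patterns most like those of Klf2 and Klf4 over the 12 libraries were sought by Pearson's r of log2 CPM among 11274 genes with a mean log2 CPM above 1. For Klf2 they were Sp7 (r = 0.990), the osteoblast factor osterix, which is itself a member of the wider SP/KLF family, Zfp36l1 (r = 0.990), an RNA-binding protein, and Galnt3 (r = 0.989), a glycosyltransferase that acts on FGF23. For Klf4 they were Tmem119 (r = 0.993), a membrane protein of osteoblasts, Hspb2 (r = 0.992), a small heat shock protein, and Tgfa (r = 0.991), a ligand of the EGF receptor. These are descriptions over libraries that fall into 4 groups and share control FFSS replicate 1.

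The other KLF and SP genes numbered 16, of which 10 were tested, and Klf8, Klf12, Klf14, Klf17, Sp5 and Sp9 were removed by the filter on low counts. In control cells 5 fell after FFSS and 0 rose in edgeR (0 rose also at an unadjusted p under 0.05 and in DESeq2), from Sp7 (−1.59, SE 0.38, edgeR adjusted p = 0.0129) to the general activator Sp1 (−0.26, SE 0.05, edgeR adjusted p = 0.00267). Over all genes 18.1% fell and 17.7% rose. The list's median log2 change was −0.26 against 0.01 over all genes, and that of the 10 KLFs −0.13. Once control FFSS replicate 1 was left out, 7 of the 10 fell and 0 rose, where 28.3% of all genes fell and 26.7% rose, with Sp7 at −2.33 (SE 0.06, edgeR adjusted p = 8.27e-22). Sp7 was measured at 547, 514 and 552 CPM static and at 322, 97.7 and 116 CPM with FFSS, so replicate 1 was again between the static libraries and the other two. In DKO cells none of the 10 passed after FFSS in edgeR (0 at an unadjusted p under 0.05 and 0 in DESeq2), and Sp7 was measured at 794, 794 and 774 CPM static and at 751, 765 and 733 CPM with FFSS. Between genotypes 3 were lower in static DKO cells, from Sp8 (−4.59, SE 0.21, edgeR adjusted p = 6.39e-10), a limb patterning factor, to Sp4 (−0.34, SE 0.12, edgeR adjusted p = 0.0293). With FFSS 2 were higher, Sp7 (2.07, SE 0.39, edgeR adjusted p = 0.00157) and Sp1 (0.22, SE 0.05, edgeR adjusted p = 0.00259), and Sp8 was lower (−4.31, SE 0.21, edgeR adjusted p = 1.46e-09). Over all genes the shares were 27.0% higher and 27.2% lower when static, and 27.0% and 29.6% with FFSS. With FFSS 5 of the 10 were higher and 2 lower without control FFSS replicate 1, against 31.0% and 34.0% of all genes, and in static cells 1 was higher and 4 lower, against 31.9% in each direction. None of the 10 passed in the interaction in edgeR (4 at an unadjusted p under 0.05 and 1 in DESeq2), and 4 had a higher response in DKO cells without that library, where 19.9% of all genes did.

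Upstream of Klf2 and Klf4 in endothelium, the MEF2 and ERK5 list held 12 symbols under 13 gene IDs, of which 12 IDs were tested and Mef2b was at 0 counts in every library. In control cells 2 rose and 4 fell after FFSS, from Hdac4 (0.50, SE 0.13, edgeR adjusted p = 0.00882, ENSMUSG00000026313) to Hdac9 (−2.22, SE 0.19, edgeR adjusted p = 5.60e-06), another class IIa deacetylase, where 17.7% of all genes rose and 18.1% fell. Mef2c fell by 1.45 on the log2 scale (SE 0.38, edgeR adjusted p = 0.0170), from 508, 465 and 509 CPM to 323, 105 and 113 CPM, with replicate 1 the highest of the FFSS libraries as for Klf2 and Klf4. Mef2a fell by 0.20 (SE 0.07, edgeR adjusted p = 0.0412) and Hdac5 by 0.71 (SE 0.08, edgeR adjusted p = 3.58e-05). Mef2d (−0.13) and Mapk7, which encodes ERK5 (0.14), did not pass (edgeR adjusted p = 0.0926 and 0.221). When control FFSS replicate 1 was left out, 3 rose and 7 fell, against 26.7% and 28.3% of all genes. Mef2d (−0.16, edgeR adjusted p = 0.0156) and Mapk7 (0.21, edgeR adjusted p = 0.00961) then passed as well, and Mef2c was at −2.18 (SE 0.06, edgeR adjusted p = 9.04e-22). In DKO cells none of the 12 passed after FFSS in edgeR (1 at an unadjusted p under 0.05 and 0 in DESeq2), and 3 (Mef2c, Hdac7 and Hdac9) fell in the fit without control FFSS replicate 1, where 5.66% of all genes fell. Mef2c was measured there at 703, 773 and 723 CPM static and at 618, 595 and 612 CPM with FFSS, without overlap (log2 change −0.27, SE 0.37, edgeR adjusted p = 0.840). In the fit without control FFSS replicate 1 the same −0.27 had an SE of 0.05 and an edgeR adjusted p of 0.000267.

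Between genotypes, 4 of these 12 were higher and 4 lower in static DKO cells, and 4 were higher and 3 lower with FFSS, against 27.0% higher and 27.2% lower of all genes when static and 27.0% and 29.6% with FFSS. With FFSS 5 were higher and 5 lower without control FFSS replicate 1, against 31.0% and 34.0% of all genes. Mef2d was higher by 1.37 when static (SE 0.06, edgeR adjusted p = 4.71e-10) and by 1.57 with FFSS (SE 0.06, edgeR adjusted p = 1.31e-10), and Mef2a by 0.78 and 0.90. Hdac9 was the highest in both, by 2.23 (SE 0.14) and 4.09 (SE 0.17), from 0.990 to 6.82 CPM over control and 22.4 to 33.4 CPM over DKO libraries. Mef2c was higher with FFSS by 1.76 (SE 0.38, edgeR adjusted p = 0.00344), while its static difference of 0.57 (SE 0.37) did not pass (edgeR adjusted p = 0.226). Without control FFSS replicate 1 the same 0.57 passed, with an SE of 0.05 and an edgeR adjusted p of 8.99e-12. Hdac7 was lower in both conditions, by 0.53 on the log2 scale when static (edgeR adjusted p = 0.00571) and by 0.36 with FFSS (edgeR adjusted p = 0.0405), or 0.55 with FFSS once control FFSS replicate 1 was left out. In the interaction 3 of the 12 passed, Hdac9 (1.86, edgeR adjusted p = 0.000953) and Hdac5 (0.85, edgeR adjusted p = 0.00152) with a higher and Map3k3 (−0.40, edgeR adjusted p = 0.0262) with a lower response in DKO cells, against 2.28% and 1.68% of all genes. Leaving out control FFSS replicate 1, 5 had a higher and 2 a lower response, where 19.9% and 17.7% of all genes did, with Mef2c at 1.91 (SE 0.07, edgeR adjusted p = 9.46e-18).

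**Figure D4:**
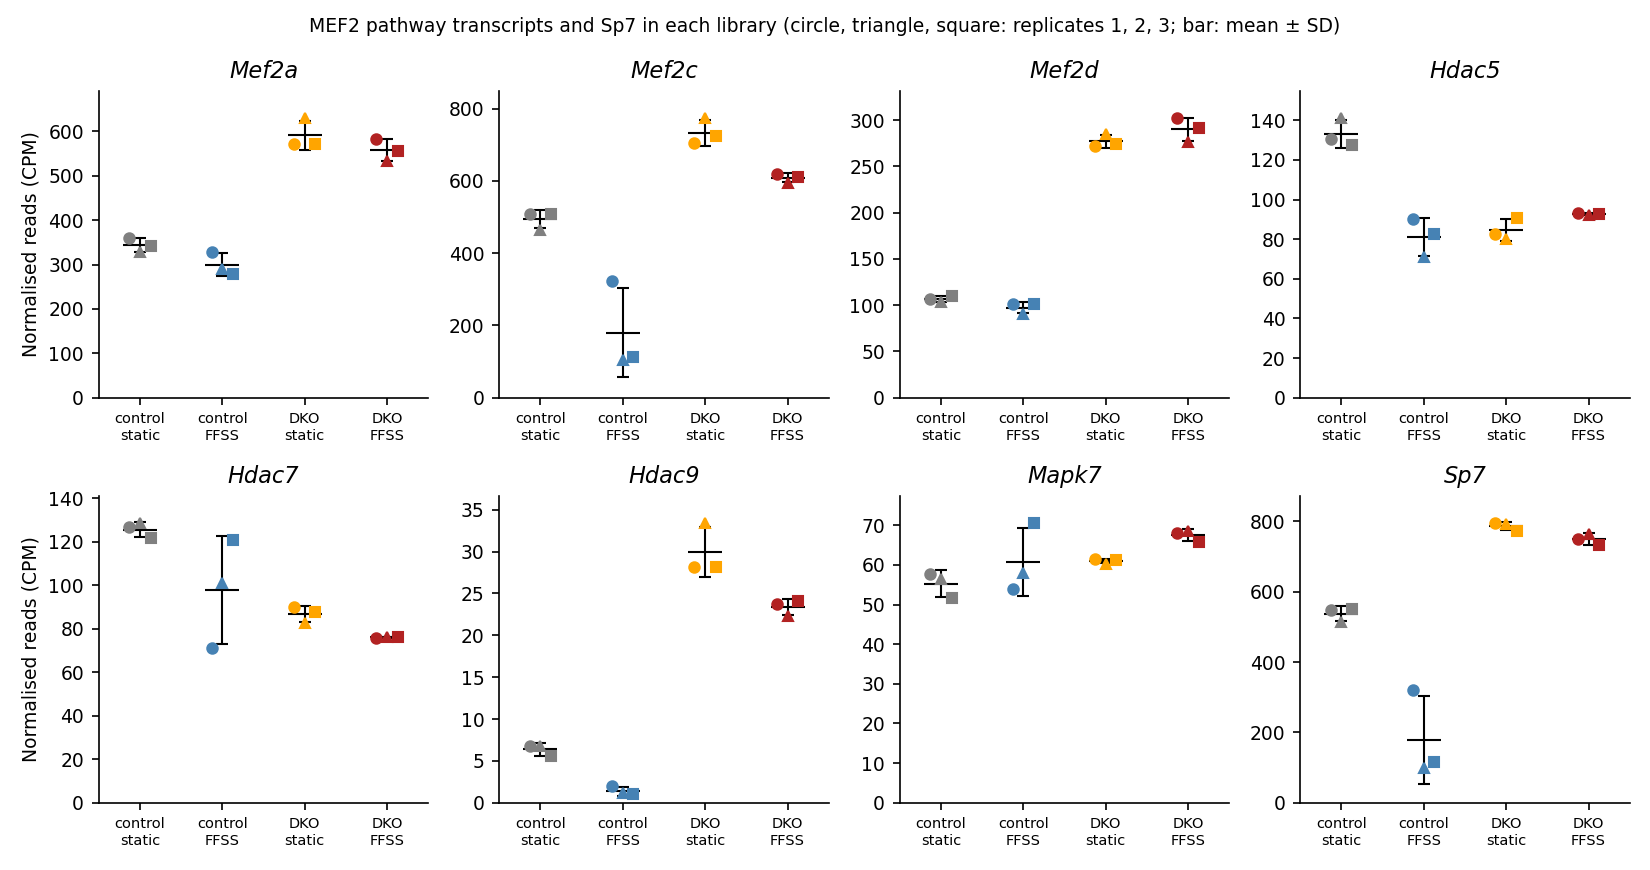
Normalised reads (CPM, y axis from 0) of Mef2a, Mef2c, Mef2d, Hdac5, Hdac7, Hdac9, Mapk7 and Sp7 in the 12 libraries, by group; points are libraries (circle, triangle and square for replicates 1, 2 and 3) and bars mean ± SD (n = 3). Mef2c and Sp7 show replicate 1 of control FFSS, at 323 and 322 CPM, apart from replicates 2 and 3. Every DKO library lies above every control library for Mef2a, Mef2c, Mef2d, Hdac9 and Sp7.

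Of 10 genes known as targets of KLF2 or KLF4 in endothelium, 6 were tested, and Nos3, the endothelial nitric oxide synthase, was at or near the floor of 3 counts (0 to 7 reads per library). In control cells Heg1, a junction receptor, rose by 0.24 (SE 0.07, edgeR adjusted p = 0.0245) and Slc9a3r2, a scaffold protein, fell by 0.66 (SE 0.13, edgeR adjusted p = 0.00212) after FFSS, and in DKO cells none of the 6 passed in edgeR (1 at an unadjusted p under 0.05 and 0 in DESeq2), and 1 rose in the fit without control FFSS replicate 1, where 4.83% of all genes rose. The list's median log2 change was −0.25 in control and 0.15 in DKO cells, against 0.01 and −0.01 over all genes. The list was not split by whether KLFs raise or lower a target, so its median and counts have no single expected direction. In static DKO cells Heg1 was higher (0.71, SE 0.07, edgeR adjusted p = 1.95e-06) and 4 were lower. The lowest of these was the prostaglandin D synthase Ptgds, which rested on 10, 9 and 13 reads in control static and on 1, 0 and 1 reads in DKO static libraries, under the floor, so no fold is given. Endothelin Edn1 followed (−1.98, SE 0.63, edgeR adjusted p = 0.0227). With FFSS Heg1 was again higher (0.71) and 3 were lower, with Edn1 the lowest (−2.82, SE 0.58, edgeR adjusted p = 0.00211). Of all genes, 17.7% rose and 18.1% fell after FFSS in control cells, 27.0% were higher and 27.2% lower in static DKO cells, and 27.0% and 29.6% with FFSS. With control FFSS replicate 1 left out, 2 of the 6 rose and 2 fell after FFSS in control cells (26.7% and 28.3% of all genes), Heg1 no longer passed (0.15, edgeR adjusted p = 0.0616), and 3 were higher and 3 lower in DKO cells with FFSS (31.0% and 34.0%). Those that rose were Edn1 (1.56, SE 0.14, edgeR adjusted p = 6.37e-10) and Thbd (0.13), and those that fell were Aqp1 (−0.91) and Slc9a3r2 (−0.88). Edn1 was measured at 5.60, 7.24 and 4.63 CPM in control static and at 3.29, 19.4 and 15.1 CPM in control FFSS libraries. In the interaction 0 of the 6 passed in edgeR (1 at an unadjusted p under 0.05 and 1 in DESeq2), and without control FFSS replicate 1 2 had a higher and 1 a lower response in DKO cells (19.9% and 17.7% of all genes).

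A further list of 13 genes, all tested, held 10 cofactors or ubiquitin ligases of KLF proteins and 3 genes that are not, the clock genes Per1 and Per2 and the glucocorticoid-induced Fkbp5. In control cells 3 rose and 3 fell after FFSS, from the clock gene Per2 (0.67, SE 0.18, edgeR adjusted p = 0.0128) to Fbxw7 (−0.56, SE 0.10, edgeR adjusted p = 0.00102), a ubiquitin ligase subunit that marks KLF proteins for degradation, where 17.7% of all genes rose and 18.1% fell. Ctbp2, a corepressor partner of KLF3, rose by 0.32 (SE 0.07, edgeR adjusted p = 0.00272) and Ctbp1 fell by 0.25 (SE 0.08, edgeR adjusted p = 0.0225). In DKO cells 1 passed, the acetyltransferase Kat2b (−0.34, SE 0.07, edgeR adjusted p = 0.0444), where 0.376% of all genes rose and 0.497% fell. In the interaction Fbxw7 had a higher (0.63, edgeR adjusted p = 0.0232) and Ctbp2 a lower response in DKO cells (−0.39, edgeR adjusted p = 0.0350), against 2.28% and 1.68% of all genes. Between genotypes 5 were higher and 2 lower in static cells, from the clock gene Per1 (0.85, SE 0.11) to the acetyltransferase Crebbp (−0.38, SE 0.08). With FFSS 4 were higher and 3 lower, from Fbxw7 (1.21, SE 0.10) to Ctbp2 (−0.53, SE 0.07), against 27.0% higher and 27.2% lower of all genes when static and 27.0% and 29.6% with FFSS. With control FFSS replicate 1 left out, 3 rose and 5 fell after FFSS in control cells (26.7% and 28.3% of all genes), 3 had a higher and 3 a lower response in DKO cells (19.9% and 17.7%), and 4 were higher and 4 lower in DKO cells with FFSS (31.0% and 34.0%). In static cells 6 were then higher and 5 lower, against 31.9% of all genes in each direction. The list's median log2 change lay between −0.08 and 0.07 in the 5 comparisons.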

How the data were processed

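Total RNA of 12 Ocy454 samples was sequenced by the authors on a BGISEQ platform, single-end. Per the submitters' processing notes and the study's methods, reads were aligned with STAR to the mm9 genome with Ensembl annotation and counted with HTSeq. The authors deposited unnormalised counts of reads for each gene ID, 1 column per library, and groups and replicate numbers were taken from the sample titles. If the counting was done without strand, reads in stretches shared by genes on opposite strands were left unassigned. From these counts, symbols were matched through an mm9 annotation (37168 of 37583 IDs, 98.9%; 1 listed gene through an older symbol), the HTSeq summary lines were left out of the totals, and genes with 0 counts in 2 or more libraries were removed as in the study's methods.

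All 14904 remaining genes were fitted with edgeR 4.0.16 in R 4.3.3 (TMM, robust quasi-likelihood F-test, 12 libraries as 4 groups), with Benjamini-Hochberg adjustment over all of them. A gene passed at an adjusted p under 0.05, and over 2-fold was counted separately. The fit was tested on simulated data, and the outcome of that test is not given here. Log2 CPM used a prior count of 2. DESeq2 1.42.0, other normalisations and filters, a replicate block, the share of reads outside genes as a covariate, the 6 libraries compared alone and leaving out each library were the alternatives. The members and gene lists were chosen with earlier results of these data known. All 10 members are described; of each other list the highest and lowest gene that passed is named, with the MEF2 genes, class IIa HDACs and Mapk7 where needed for the pathway, and a few more after their values were seen. Depth of 17.6 to 19.2 M gene reads makes counting error small for most members. It is larger for Klf7 (259 to 708 reads), Klf5 (150 to 287 reads) and most of all Klf15 (13 to 100 reads). The floor of 3 counts allows for counting error alone, as PCR reads carry no molecular identifiers. RPKM was computed from TMM-scaled CPM and the summed exon length. GC box and TATA box counts are not reported.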

Additional observations from a re-analysis of the deposited data

Results flagged for a closer look

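The response of Klf3 to FFSS differed between the genotypes by the interaction test. Its response was 0.36 higher on the log2 scale in DKO cells (SE 0.10, edgeR adjusted p = 0.0491), with log2 changes against the static mean of −0.39, −0.49 and −0.30 in the 3 control libraries and of −0.01, −0.14 and 0.06 in the 3 DKO libraries. The call was lost in 13 of 19 alternatives. No separate test of single outlying libraries is given for this gene.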

How the results depend on the processing

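Of 990 member values computed under up to 20 alternatives for 50 results, 891 kept direction and side of the threshold, 39 gained a call, 25 lost one and 35 turned direction; all that turned were without a call in the 12-library fit, and the cause was not tested. Scaling by library totals alone, which moved the median of all genes in control FFSS cells to 0.13 on the log2 scale and in genotypes with FFSS to −0.25, gave 5 members past the threshold for FFSS in control cells, 2 higher and 3 lower (27.5% of all genes higher and 11.2% lower), and 0 for the interaction (1.60% and 4.01%). It turned Klf6 (0.045) and Klf15 (0.054) after FFSS in control cells, Klf6 (−0.017) in the interaction, Klf5 (−0.043), Klf6 (−0.074) and Klf13 (−0.025) in static genotypes, and Klf3 (−0.052) and Klf6 (−0.091) in genotypes with FFSS. With the share of reads outside genes in the model, 3 members passed for FFSS in DKO cells (5.02% of all genes higher and 4.93% lower), 3 for the interaction (3.76% and 2.10%) and 10 for static genotypes, 4 higher and 6 lower (28.6% and 29.5%). It turned Klf5 (−0.22), Klf7 (−0.26), Klf9 (0.21) and Klf13 (0.11) after FFSS in control cells, Klf6 (−0.11), Klf7 (−0.10) and Klf9 (0.12) in DKO cells, Klf5 (0.24), Klf7 (0.16) and Klf9 (−0.087) in the interaction, and Klf5 (−0.31) and Klf6 (−0.22) in static genotypes.

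For FFSS in DKO cells 1 member passed with no filter on low counts (0.349% of all genes higher and 0.402% lower), 1 with DESeq2 (1.25% and 1.42%) and 2 in the fit to those 6 libraries (5.54% and 5.68%). The interaction gave 0 with filterByExpr (2.34% of all genes higher and 2.00% lower), 2 with DESeq2 (4.72% and 2.82%) and 0 with the replicate block (1.83% and 0.980%). Same-numbered libraries did not deviate together (mean correlation 0.00226, from −0.0603 to 0.0631 over 18 pairs). This gave no sign that the numbers pair them, but it cannot show that they were handled apart. The block changed no other count of members. Asking for over 2-fold left 0 members in the interaction, 2 in static genotypes and 2 in genotypes with FFSS. Of all 14904 genes, 56 were then higher and 41 lower in the interaction. The counts were 1190 and 1088 in static genotypes, and 1230 and 1335 in genotypes with FFSS.

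With 1 library left out, 3 to 7 members passed for FFSS in control cells, 0 to 2 for FFSS in DKO cells and 0 to 8 for the interaction, each highest without control FFSS replicate 1, where 26.7% of all genes were higher and 28.3% lower, 4.83% and 5.66%, and 19.9% and 17.7%, in that order. Directions that turned ranged as follows on the log2 scale: after FFSS in control cells, Klf6 from −0.25 to 0.058, Klf10 from −0.0051 to 0.12 and Klf15 from −0.23 to 0.16; in DKO cells, Klf3 from −0.072 to 0.028, Klf6 from −0.0035 to 0.044 and Klf9 from −0.083 to 0.021; in the interaction, Klf6 from −0.041 to 0.27; in static genotypes, Klf5 from −0.065 to 0.10 and Klf6 from −0.017 to 0.030; and with FFSS, Klf4 from −0.34 to 0.24 and Klf6 from −0.033 to 0.28.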
